A study of Mus musculus with 24 samples.

Results

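A set of 10 transcription factor genes of the limb bud mesenchyme was followed in mouse forelimb and hindlimb buds: the paired-type homeobox genes Prrx1 and Prrx2, the basic helix-loop-helix genes Twist1 and Twist2, the LIM homeobox genes Lhx2, Lhx9 and Lmx1b, and the T-box genes Tbx2, Tbx3 and Tbx18. They were chosen by name, and all 10 were found among the 38019 gene symbols of the expression tables. The buds were taken at embryonic days E10.5 and E11.5 from C57/Bl6 embryos. Every embryo carried floxed alleles of U11 (Rnu11), the gene of a small RNA of the minor spliceosome. Libraries called WT here are U11flx/flx::Prrx1-Cre-, and those called mutant are U11flx/flx::Prrx1-Cre+, so the WT carry the floxed alleles too and no group lacks them. The Cre is driven by the Prrx1 promoter, which is active in limb mesenchyme, and the other cells of the bud were not targeted. Each combination of stage, limb and genotype had 3 libraries, which gives 8 groups and 24 libraries. The forelimb (FL) and hindlimb (HL) were separate libraries, and the labels do not say which libraries came from the same embryos.

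In the limb bud, the mesenchyme lies under an ectoderm whose apical ridge supplies FGF signals, while a posterior region supplies SHH. PRRX1 and PRRX2 are partly redundant homeodomain proteins of the early mesenchyme, and TWIST1 is a bHLH factor needed for limb outgrowth and the upkeep of the ridge, with TWIST2 its close relative. LHX2 and LHX9 act in the distal mesenchyme in the exchange with ridge and SHH signals, and LMX1B specifies dorsal mesenchyme. TBX2 and TBX3 are repressors expressed at the anterior and posterior margins, and TBX18 belongs to the proximal limb mesenchyme. The questions were how the level of each gene stood in each group, whether it changed from E10.5 to E11.5, whether it differed between limbs, and whether it differed between mutant and WT.

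The RefSeq sequence just before the transcription start is shown for the 4 members whose level passed the test between stages in WT hindlimb, so that the promoters of genes that moved can be compared. Each is the 190 bases before the start, 5′ to 3′ on the gene's own strand, in GRCm38.p6. Of the 10 members, 8 matched the promoter table (Tbx2 and Tbx3 did not). Capitals mark matches on either strand to the E-box CANNTG, the homeodomain motif TAATTA, the T-box half-site AGGTGTGA, the TATA box TATAAA or the GC box GGGCGG.
Tbx18, chr9:87731261-87731450: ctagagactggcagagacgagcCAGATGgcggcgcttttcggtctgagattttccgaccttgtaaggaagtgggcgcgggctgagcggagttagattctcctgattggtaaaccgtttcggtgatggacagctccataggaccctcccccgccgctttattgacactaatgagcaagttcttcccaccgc
Prrx1, chr1:163313711-163313900: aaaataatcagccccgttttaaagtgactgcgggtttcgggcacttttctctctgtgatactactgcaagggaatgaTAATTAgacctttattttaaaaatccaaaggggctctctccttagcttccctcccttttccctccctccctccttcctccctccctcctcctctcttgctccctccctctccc
Twist1, chr12:33957481-33957670: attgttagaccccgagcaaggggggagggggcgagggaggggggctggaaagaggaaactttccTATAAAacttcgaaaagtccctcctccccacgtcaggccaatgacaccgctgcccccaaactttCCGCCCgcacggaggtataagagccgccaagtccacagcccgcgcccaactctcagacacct
Lhx2, chr2:38339091-38339280: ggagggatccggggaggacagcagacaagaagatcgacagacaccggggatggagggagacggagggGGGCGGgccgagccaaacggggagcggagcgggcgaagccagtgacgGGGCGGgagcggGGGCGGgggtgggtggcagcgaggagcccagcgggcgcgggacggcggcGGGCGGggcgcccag

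The 4 promoters had little in common. The Tbx18 window held 1 E-box and the Prrx1 window 1 homeodomain motif. Twist1 had a TATA box and a GC box, and Lhx2 had 4 GC boxes. GC content was 48.9% in Prrx1, 55.3% in Tbx18, 60% in Twist1 and 76.8% in Lhx2, against a median of 53.2% over 32851 promoter windows of the same length. In that whole set 56.1% held CANNTG, 3.56% TAATTA, 0.861% AGGTGTGA, 9.44% TATAAA and 30.7% GGGCGG, so an E-box is common and a TAATTA is not. A match is a run of letters, and binding was not measured.

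Levels are TPM, a transcript abundance per gene length with a fixed total in each library, after each library was rescaled so that the medians of 3518 widely expressed genes were equal. In FL the mutants averaged 36.7% of the WT level of Rnu11 at E10.5 and 13.5% at E11.5, and in HL 35.9% and 25.3%. Without E10.5 FL mutant 3 the first of these was 18.9%, and without E10.5 FL WT 1 as well it was 14.4%. Among the E10.5 FL libraries, however, WT 1 held less Rnu11 (251 TPM) than mutant 3 (482 TPM), against their labels. E10.5 FL mutant 3 also held hindlimb markers (Tbx4 at 1.68 TPM and Pitx1 at 1.53 TPM), and its forelimb marker Tbx5 was at 1.81 TPM against 5.24 and 5.36 TPM in the other FL mutants of that stage. E10.5 FL WT 1 was low in Tbx5 too, at 2.25 TPM against 7.47 and 10.1 TPM in the other FL WT libraries of that stage. Values without these libraries are given beside a number of the results they touch. E10.5 reads were trimmed by 3 nt at the 3′ end per the labels and E11.5 reads were not, so stage and trimming cannot be told apart. Of 11 limb mesenchyme markers, 8 to 10 reached 1 TPM in all 3 libraries of a group, and none was at 0 in all 3. The members Prrx1, Prrx2, Twist1 and Twist2 are among these markers. Of the 7 that are not members, 4 to 6 reached 1 TPM in all 3 libraries of a group. Whole buds were sequenced, so fewer cells of a type and less RNA per cell cannot be told apart.

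Prrx1 was the most abundant member, with a mean of 44.4 TPM over the 24 libraries, and it stood above the next member in 23 of them. Prrx2 (20.1 TPM) and Lhx9 (19.4 TPM) followed at levels that could not be ordered, since Prrx2 was above Lhx9 in 12 of 24 libraries. Lhx9 exceeded Twist1 (14.7 TPM) in 18 libraries, and Twist1 exceeded Tbx18 (7.39 TPM) in 17. Tbx18, Lhx2 (6.83 TPM), Lmx1b (5.55 TPM) and Twist2 (5.13 TPM) overlapped one another: Tbx18 was above Lhx2 in 12 libraries, Lhx2 above Lmx1b in 14, and Lmx1b above Twist2 in 13. Tbx3 (3.18 TPM) lay below Twist2 in 22 libraries and above Tbx2 (2.39 TPM) in 18. All members reached 1 TPM in all 24 libraries except Tbx2, which reached it in 23. The mean of Prrx1 was above that of 97.1% of the 21019 nuclear protein-coding genes, and the mean of Tbx2 above that of 62.6%.

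The members differed in how far they ranged. Tbx18 had the widest range of the 10, with its highest library 13.1 times its lowest, and Twist1 the narrowest at 2.66 times. The others lay between 3.40 times for Twist2 and 5.58 times for Lhx2. The library E10.5 HL WT 1 was the lowest of the 24 for 5 members (Prrx1, Prrx2, Tbx18, Twist2 and Tbx3), and E10.5 FL mutant 3 for 3 members (Lhx9, Lhx2 and Lmx1b).

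**Figure D1:**
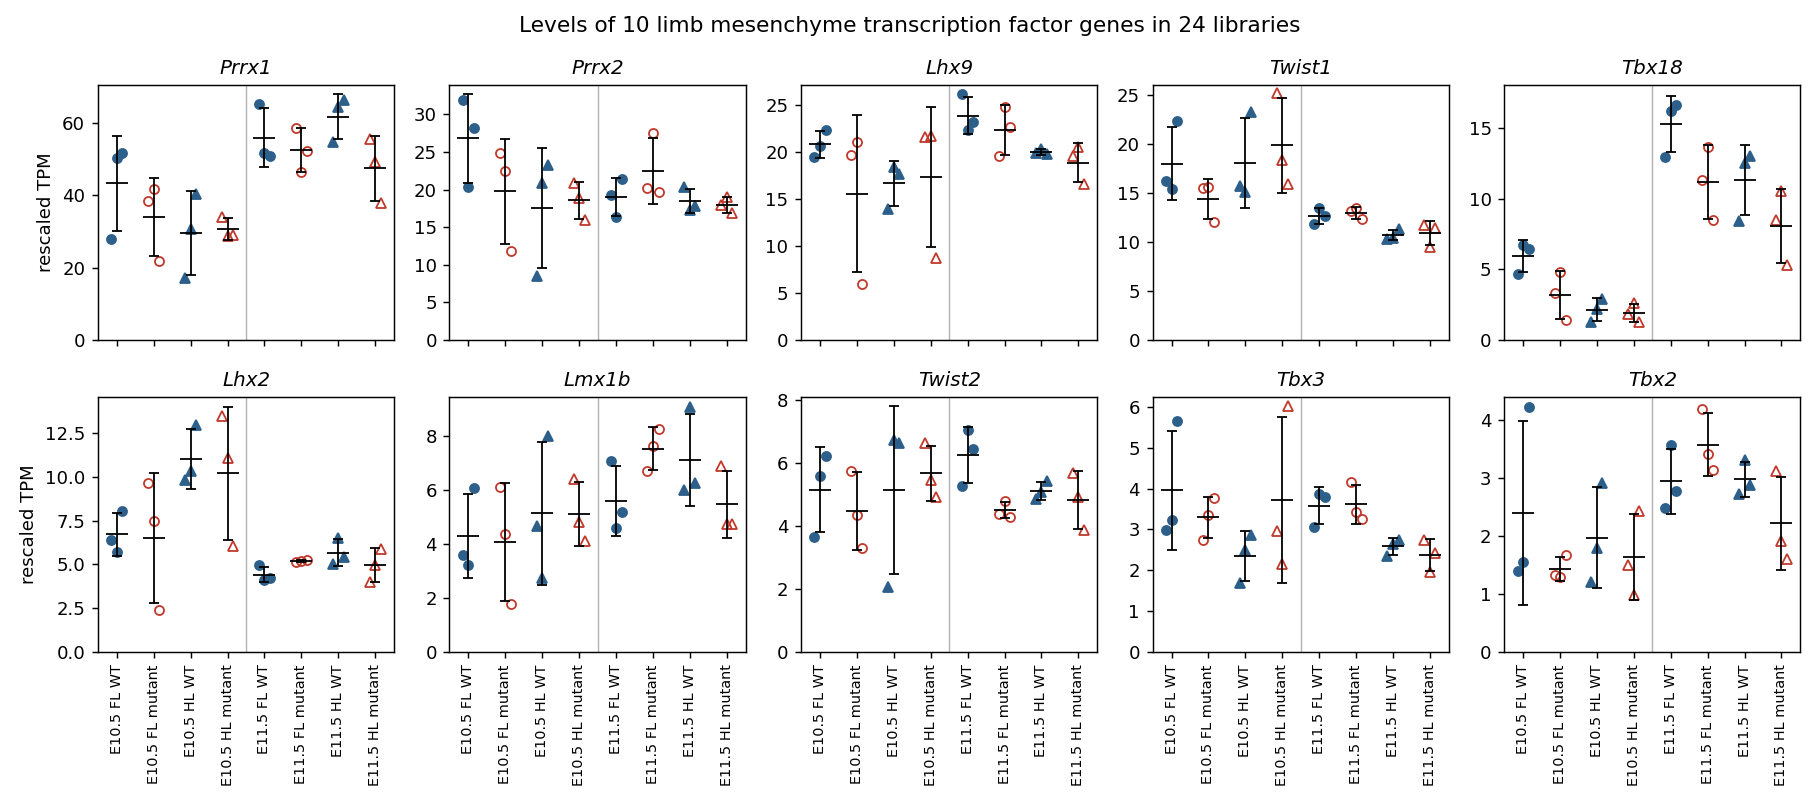
Rescaled TPM of each member in the 24 libraries, by stage; circles are forelimb and triangles hindlimb, filled blue WT and open red mutant, with the group mean as a line and its SD as a bar. Tbx18 lies between 1.27 and 6.75 TPM at E10.5 and between 5.32 and 16.6 TPM at E11.5, while the mean of Twist1 is lower at E11.5 in all 4 groups.

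Tbx18 rose from E10.5 to E11.5 in both limbs and both genotypes, and it was the member whose level moved most with stage. In FL WT the E10.5 libraries held 4.68, 6.75 and 6.46 TPM and the E11.5 libraries 13.0, 16.2 and 16.6 TPM. In HL WT they held 1.27, 2.23 and 2.89 TPM at E10.5 and 8.45, 12.6 and 13.0 TPM at E11.5. The stages did not overlap in either limb of WT.
In mutants, FL went from 3.30, 4.84 and 1.43 TPM to 11.4, 13.7 and 8.49 TPM. HL went from 1.83, 2.59 and 1.30 TPM to 8.47, 10.53 and 5.32 TPM. Again no E10.5 library reached an E11.5 library of its limb and genotype. Differences below are of log2(rescaled TPM + 1), ± SE, with p-values from limma adjusted by Benjamini-Hochberg over all genes tested; this scale understates the change of low genes.
The Tbx18 difference was 1.23 ± 0.29 in FL WT (adjusted p = 0.00302), 1.61 ± 0.29 in FL mutants (0.000606), 1.99 ± 0.29 in HL WT (6.27e-05) and 1.63 ± 0.29 in HL mutants (0.000405). As ratios of mean TPM these are 2.56, 3.51, 5.32 and 4.25. Without E10.5 FL WT 1 the rise in FL WT was 1.09 (0.0148), and without E10.5 FL mutant 3 that in FL mutants was 1.26 (0.00413). The FL WT rise missed the threshold on the deposited scale (0.79, adjusted p 0.144).

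Stage moved much of the transcriptome, and that is the background for the members' counts. In FL WT 2 of 10 members were called (1 higher, 1 lower), against 40.0% of the 12118 genes tested (23.3% higher, 16.8% lower). In FL mutants 3 of 10 were called, all higher, against 36.3% of genes (18.7% higher, 17.6% lower). In HL WT 4 of 10 were called (2 higher, 2 lower), against 42.0% (23.8% higher, 18.2% lower). In HL mutants 3 of 10 were called (1 higher, 2 lower), against 36.3% (18.5% higher, 17.8% lower). The members' share was no larger than that of all genes in any of the 4 comparisons. Members without overlap between stages numbered 3, 4, 5 and 4 of 10 in the same order, against 45.2%, 53.2%, 50.9% and 52.6% of genes. All genes split otherwise on the deposited scale, with 223 higher and 2500 lower in FL WT against 2821 and 2030 after rescaling, 820 and 200 in FL mutants against 2267 and 2136, 270 and 4011 in HL WT against 2888 and 2207, and 169 and 6140 in HL mutants against 2241 and 2153. With protein-coding genes summed anew it was 2359 and 1200 in FL mutants and 1475 and 2158 in HL mutants. The median gene moved on the deposited scale by -0.27, 0.18, -0.42 and -0.61.

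**Figure D2:**
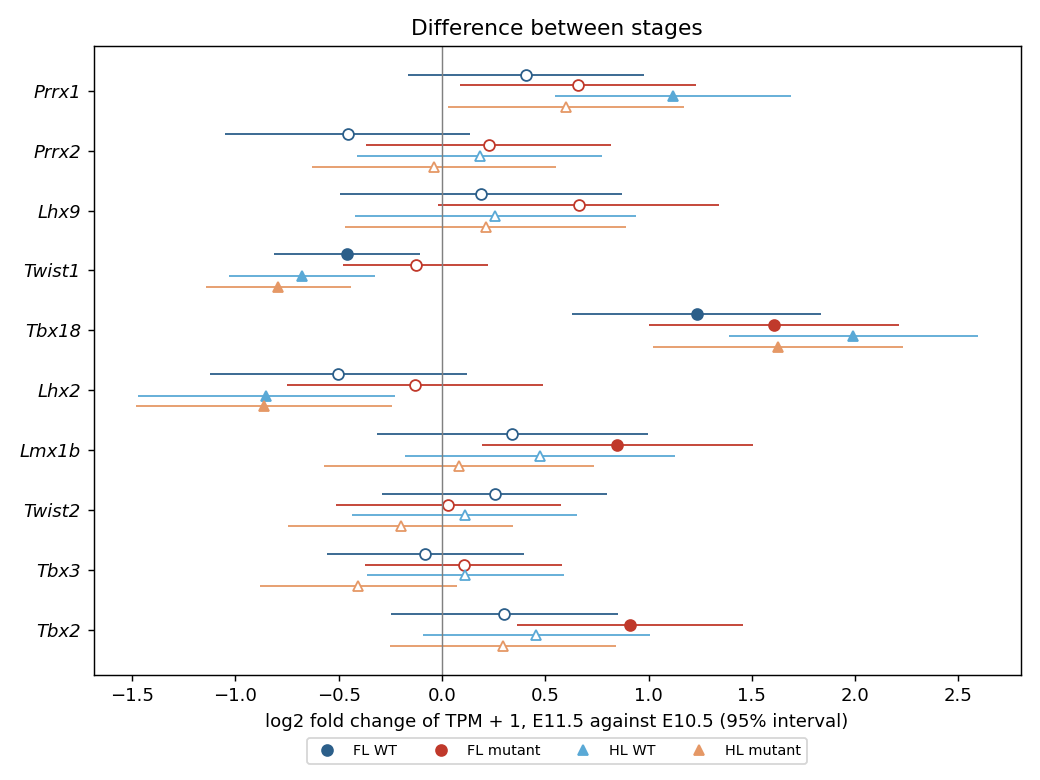
E11.5 minus E10.5 difference in log2(rescaled TPM + 1) for each member in FL and HL of WT and mutants; points are limma estimates, bars 95% intervals, filled points have an adjusted p under 0.05 and open points do not. Tbx18 is filled in all 4 comparisons at 1.23 to 1.99, and Twist1 is filled on the negative side in 3.

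The other T-box members, Tbx2 and Tbx3, moved less. Tbx2 in FL mutants held 1.32, 1.29 and 1.67 TPM at E10.5 and 4.17, 3.41 and 3.13 TPM at E11.5, with no overlap. This was a rise of 0.91 ± 0.26 (limma adjusted p = 0.012), or 2.50 times in mean TPM, and 0.98 (0.0219) without E10.5 FL mutant 3. Without the 6 mutant libraries that held at least 5 TPM of Xist, it was 1.06. Xist is a transcript of the inactive X chromosome and so a mark of female tissue. Without these libraries, E10.5 mutant values rest on 1 library in each limb.
In FL WT, Tbx2 held 1.40, 1.55 and 4.22 TPM at E10.5 and 2.48, 3.55 and 2.76 TPM at E11.5. The stages overlapped because of E10.5 FL WT 3, and the difference of 0.30 was not called; without that library it was 0.66 (0.0328). In HL the Tbx2 differences were 0.46 in WT and 0.30 in mutants, neither past the threshold. Tbx3 passed the test in none of the 4 comparisons, with differences of -0.08 in FL WT, 0.11 in FL mutants, 0.11 in HL WT and -0.41 in HL mutants. In E10.5 HL mutants 1 library, at 6.03 TPM, stood above the others at 2.96 and 2.16 TPM.

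Of the paired-type genes, Prrx1 rose in HL WT. Its E10.5 libraries held 17.2, 30.8 and 40.3 TPM and its E11.5 libraries 54.6, 64.3 and 66.3 TPM, with no overlap. The difference was 1.12 ± 0.27 (limma adjusted p = 0.00341), 2.10 times in mean TPM, and it stayed past the threshold when each of the 6 libraries was left out in turn. It was not called on the deposited scale (0.48, 0.345).
In FL mutants Prrx1 held 38.5, 41.8 and 21.7 TPM and then 58.6, 46.4 and 52.3 TPM. In HL mutants it held 34.1, 28.8 and 29.1 TPM and then 55.4, 49.1 and 37.8 TPM. In both mutant limbs the stages did not overlap, yet the differences of 0.66 ± 0.27 (0.0663) and 0.60 ± 0.27 (0.0906) missed the threshold. The FL value was 0.37 without E10.5 FL mutant 3. It was called without E10.5 FL mutant 2 (0.83, 0.0448) and with protein-coding genes summed anew (0.75, 0.04996), and the HL value with only the 6 libraries compared (0.0208) or without E10.5 FL WT 1 and E10.5 FL mutant 3 (0.032). In FL WT the levels overlapped, at 28.0, 50.2 and 51.6 TPM and then 65.4, 51.8 and 50.7 TPM, with a difference of 0.40 ± 0.27 (0.248), or 0.13 without E10.5 FL WT 1. Prrx2 was not called in any group: its differences were -0.46 in FL WT, 0.23 in FL mutants (-0.087 without E10.5 FL mutant 3), 0.18 in HL WT and -0.04 in HL mutants.

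Twist1 fell in 3 of the 4 comparisons. In HL WT it went from 15.7, 15.04 and 23.3 TPM to 10.3, 10.4 and 11.3 TPM, and in HL mutants from 25.2, 18.4 and 15.9 TPM to 11.7, 9.50 and 11.46 TPM. Each E11.5 HL library lay below each E10.5 HL library of its genotype. The differences were -0.68 ± 0.17 in HL WT (limma adjusted p = 0.00378) and -0.79 ± 0.17 in HL mutants (0.00157). The E11.5 means were 0.593 and 0.548 of the E10.5 means. Without the Xist-holding libraries, which leaves 1 E10.5 HL mutant library, the HL mutant value was -0.75.
In FL WT Twist1 went from 16.2, 15.4 and 22.3 TPM to 11.9, 13.5 and 12.7 TPM, without overlap. That difference of -0.46 ± 0.17 (0.0365) was close to the threshold and was -0.30 (0.176) without E10.5 FL WT 3; it was also lost without each of the E11.5 FL WT libraries, and with no filter on low genes (0.0744). In FL mutants Twist1 held 15.5, 15.6 and 12.01 TPM and then 13.2, 13.5 and 12.3 TPM, which overlapped, with a difference of -0.13. Twist2 was called in no stage comparison, with differences between -0.20 in HL mutants and 0.25 in FL WT.

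Among the LIM homeobox genes, Lhx2 fell in HL. In HL WT it held 9.79, 10.3 and 12.9 TPM at E10.5 and 5.02, 6.50 and 5.43 TPM at E11.5. In HL mutants it held 13.5, 11.1 and 6.05 TPM and then 3.97, 4.99 and 5.90 TPM. Both pairs of groups were apart, the mutants narrowly so. The differences were -0.85 ± 0.30 in HL WT (limma adjusted p = 0.0279) and -0.86 ± 0.30 in HL mutants (0.03), so the E11.5 means were 0.513 and 0.486 of the E10.5 means. Both calls depended on single libraries. The WT call was kept in 3 of 6 fits without 1 library and lost without E10.5 HL WT 3 (adjusted p = 0.088), E11.5 HL WT 1 (0.0797) or E11.5 HL WT 3 (0.068). The mutant call was kept in 2 of 6 and lost without E10.5 HL mutant 1 (0.139) or 2 (0.0946) and without E11.5 HL mutant 1 (0.109) or 2 (0.0705). With no filter on low genes both were lost (0.068 and 0.0707).
In FL WT Lhx2 went from 6.39, 5.69 and 8.06 TPM to 4.93, 4.12 and 4.19 TPM. Those groups did not overlap, and the difference of -0.50 ± 0.30 was not called (0.184). It was called without the Xist-holding libraries (0.015), where the WT libraries are the same and the estimate of spread is not. In FL mutants it held 9.63, 7.48 and 2.42 TPM and then 5.11, 5.18 and 5.22 TPM. The low library is E10.5 FL mutant 3: with it the difference was -0.13, and without it -0.62 (0.0444).

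Lhx9, by contrast, passed the test in no group. Its differences were 0.19 in FL WT, 0.66 ± 0.33 in FL mutants (limma adjusted p = 0.119), 0.26 in HL WT and 0.21 in HL mutants. The E10.5 FL mutant value rested again on mutant 3, at 5.95 TPM against 19.6 and 21.1 TPM, and without it the difference was 0.12. In HL WT the Lhx9 libraries went from 13.9, 18.4 and 17.6 TPM to 19.8, 20.3 and 19.8 TPM with no overlap.
Lmx1b was called in FL mutants, where it went from 6.11, 4.36 and 1.77 TPM to 6.71, 7.65 and 8.27 TPM. The rise of 0.85 ± 0.31 (0.0406) was 0.46 (0.246) without E10.5 FL mutant 3, and the call was also lost without E10.5 FL mutant 2 (0.0536) and without E11.5 FL mutant 1 (0.0571), 2 (0.0947) or 3 (0.107). It was not called on the deposited scale (0.116) or with no filter on low genes (0.101). Without the Xist-holding libraries, which leaves 1 E10.5 FL mutant library, the rise was 0.61. The other Lmx1b differences were 0.34 in FL WT, 0.47 in HL WT and 0.08 in HL mutants, none called.

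Averaged over limb and genotype, a comparison added after the data were seen, 6 of 10 members were called, against 70.0% of all genes. Tbx18 rose by 1.61 ± 0.14 (limma adjusted p = 2.42e-08), Prrx1 by 0.69 ± 0.14 (0.000177), Tbx2 by 0.49 ± 0.13 (0.00263) and Lmx1b by 0.44 ± 0.16 (0.0185). Twist1 fell by 0.51 ± 0.08 (2.61e-05) and Lhx2 by 0.59 ± 0.15 (0.00175). Lhx9 at 0.33 ± 0.16 (0.0775), Prrx2 at -0.02, Twist2 at 0.05 and Tbx3 at -0.07 were not called. On the deposited scale the rises of Prrx1 (0.27, adjusted p 0.255), Tbx2 (0.20, 0.208) and Lmx1b (0.06, 0.83) were not called, while Prrx2 (-0.44, 0.0489) and Tbx3 (-0.38, 0.00659) were called lower. Without E10.5 FL WT 1 and E10.5 FL mutant 3 the Lmx1b rise was 0.32 and missed the threshold (0.0545). Other mesenchyme genes moved with stage as well: the summed level of 7 mesenchyme markers that are not members was 77.8 to 138 TPM in E10.5 libraries and 126 to 172 TPM in E11.5 libraries. The part of this change in mesenchyme markers in the members' results was not tested.

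Related members were also compared as a ratio within each library, because a ratio does not depend on how libraries are scaled. The pairs were Lhx9 with Lhx2, Prrx1 with Prrx2, Tbx3 with Tbx2 and Twist1 with Twist2, and the 12 tests (4 ratios by stage, limb and genotype) were exact two-sided permutations of libraries within the other factors, adjusted over the 12. These tests were added after the data were seen, so they describe patterns already visible.

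Lhx9 exceeded Lhx2 in each of the 24 libraries, and by more at E11.5. The ratio was 3.04, 3.63 and 2.76 in E10.5 FL WT and 5.29, 5.40 and 5.53 in E11.5 FL WT. In HL WT it was 1.42, 1.79 and 1.36 and then 3.95, 3.12 and 3.64. In mutants it was 2.04, 2.82 and 2.46 and then 3.82, 4.79 and 4.33 in FL, and 1.60, 1.96 and 1.44 and then 4.92, 4.11 and 2.80 in HL. The stages did not overlap in any of the 4 groups. On the log2 scale the ratio was 1.02 higher at E11.5, with 0.79 to 1.23 in the single groups (exact permutation, adjusted p = 0.00015; the raw p of 1.25e-05 is the smallest that 160000 arrangements can give). Between limbs it differed by -0.59 (HL minus FL), lower in 4 of 4 groups with -1.05 to -0.16 (adjusted exact p = 0.00042), with overlap between the limbs in E11.5 mutants. Both stayed past the threshold when each of the 24 libraries was left out. E10.5 FL mutant 3, in which both genes were lowest, had a ratio of 2.46, between those of the other FL mutants. Between genotypes the Lhx9 to Lhx2 ratio differed by -0.11 and was not called (0.404).

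The Prrx1 to Prrx2 ratio was higher at E11.5. It ran from 0.879 to 2.47 in the E10.5 libraries and from 1.69 to 3.73 in the E11.5 libraries. The only library with more Prrx2 than Prrx1 was E10.5 FL WT 1. The log2 difference was 0.73, with 0.43 to 0.95 in the single groups (exact permutation, adjusted p = 0.0003). It did not pass between limbs (0.10, 0.598) or genotypes (-0.15, 0.428). Without E10.5 FL WT 1 and E10.5 FL mutant 3 the genotype difference was -0.27 and passed (0.0451), and without E10.5 FL WT 1 alone it was -0.26 (0.0384).

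The Tbx3 to Tbx2 ratio fell with stage. In WT it was 2.14, 2.09 and 1.34 in E10.5 FL and 1.23, 1.09 and 1.37 in E11.5 FL, and in HL it was 1.39, 1.39 and 0.987 and then 0.861, 0.801 and 0.957. In mutants it was 2.08, 2.61 and 2.25 and then 0.998, 1.01 and 1.04 in FL, and 1.97, 2.22 and 2.49 and then 0.881, 1.02 and 1.51 in HL. The stages overlapped in FL WT only through single libraries at 1.34 and 1.37, and were apart in the other 3 groups. The log2 difference was -0.82, with -1.18 to -0.51 in the single groups (exact permutation, adjusted p = 0.00015). The ratio was 0.31 higher in mutants on the log2 scale (adjusted exact p = 0.0486), with -0.27 to 0.84 in the single groups, higher in 3 of 4. That call was kept in 7 of 24 fits without 1 library, and without the Xist-holding libraries the difference was 0.30 (0.216). Between limbs it was -0.24 and was not called (0.0806), but without the Xist-holding libraries it was -0.34 and called (0.0075).

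Twist1 exceeded Twist2 in each library, by 2.24 to 7.60 times at E10.5 and 1.92 to 3.01 times at E11.5. The E11.5 minus E10.5 difference of the log2 ratio was -0.62, with -0.90 to -0.18 in the single groups (exact permutation, adjusted p = 0.0003375). The highest ratio, 7.60, was in E10.5 HL WT 1, where Twist2 was at 2.07 TPM. Neither limb (-0.02, 0.899) nor genotype (0.09, 0.654) passed for this ratio.

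**Figure D3:**
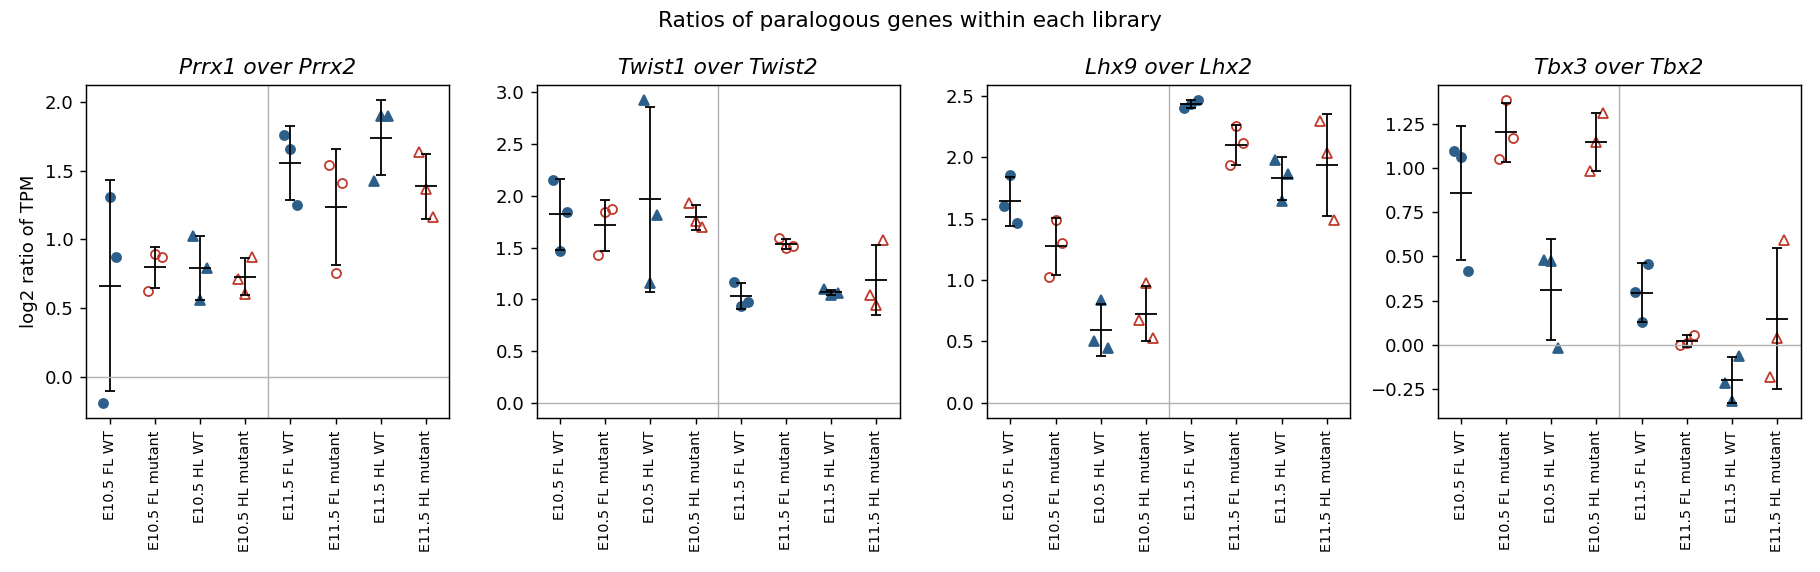
log2 ratio of TPM between related members in each of the 24 libraries, by stage; circles are FL and triangles HL, filled blue WT and open red mutant, with the group mean as a line and its SD as a bar. The Lhx9 to Lhx2 ratio is higher at E11.5 in all 4 groups and the Tbx3 to Tbx2 ratio is lower in all 4.

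Between mutant and WT, no member passed the threshold in any limb or stage. Limma called 0 of 10 members in E10.5 FL (0.0265% of 11336 genes tested), 0 of 10 in HL at that stage (0.00882%), 0 of 10 in E11.5 FL (1.66% of 11398 genes) and 0 of 10 in E11.5 HL (0.0175%). At an unadjusted p under 0.05 the counts were 1 member (Tbx18), 0, 1 (Twist2) and 1 (Prrx1), against 5.16%, 1.90%, 22.7% and 6.19% of genes. Few genes of any kind passed in 3 of these 4 comparisons, so a miss does not show that members were alike.

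Prrx1, the gene whose promoter drives the Cre, differed by -0.34 in E10.5 FL (95% interval -1.07 to 0.38; -0.056 without mutant 3, -0.62 without WT 1), 0.13 in HL at that stage (-0.59 to 0.86), -0.09 in FL at E11.5 (-0.42 to 0.24) and -0.39 in HL at E11.5 (-0.72 to -0.05). The last of these had a limma unadjusted p of 0.0271 and an adjusted p of 0.75, and the libraries of the groups overlapped, at 54.6, 64.3 and 66.3 TPM in WT and 55.4, 49.1 and 37.8 TPM in mutants. The E10.5 intervals are the wider ones, so at that stage only large differences of Prrx1 could have been seen.

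Tbx18 had values below 0 in all 4 genotype comparisons. At E10.5 FL the mutants held 3.30, 4.84 and 1.43 TPM and the WT 4.68, 6.75 and 6.46 TPM; the highest mutant library was above the lowest WT library. The difference was -0.81 ± 0.31 (limma unadjusted p = 0.0232, adjusted p = 0.892), -0.95 without E10.5 FL WT 1, -0.46 without E10.5 FL mutant 3, and -0.60 without both. It was -0.24 without the Xist-holding libraries, which leaves 1 mutant library in this group, assumed to vary like the others. In HL at the same stage it was -0.10. At E11.5 it was -0.43 ± 0.23 in FL (adjusted p = 0.284) and -0.46 ± 0.23 in HL (adjusted p = 0.75). Averaged over stage and limb Tbx18 differed by -0.45 ± 0.14 (95% interval -0.75 to -0.15, unadjusted p = 0.00566, adjusted p = 0.216), the only member at an unadjusted p under 0.05, where limma called 0.215% of all genes and 11.4% had an unadjusted p under 0.05. Leaving out each library in turn gave -0.52 to -0.36, with an adjusted p of 0.118 to 0.376. Without the 6 Xist-holding libraries, all of them mutant, it was -0.12 (adjusted p = 0.999). The averages of the other 9 members lay between -0.20 for Lhx9 and 0.04 for Tbx3. The Lhx9 average was -0.06 without E10.5 FL mutant 3 and 0.07 without the Xist-holding libraries.

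Twist2 in E11.5 FL held 4.39, 4.77 and 4.29 TPM in mutants and 5.27, 7.03 and 6.45 TPM in WT. The groups did not overlap, as for 25.8% of genes in that comparison. The difference was -0.40 ± 0.12 (95% interval -0.66 to -0.13, limma adjusted p = 0.0973), with 0.718 as the ratio of means. On the deposited scale it was 0.05, so its sign rests on the scaling. Lhx2 was the other member without overlap there, higher in mutants at 5.11, 5.18 and 5.22 TPM against 4.93, 4.12 and 4.19 TPM, with a difference of 0.19 that was not called (0.365).
On the deposited scale limma called 5 members higher in E11.5 FL mutants: Prrx2 at 0.72 (0.029), Twist1 at 0.52 (0.0431), Lhx2 at 0.61 (0.0431), Lmx1b at 0.82 (0.0337) and Tbx2 at 0.61 (0.0289). On that scale the median gene moved by 0.39, and 3691 genes were called higher and 42 lower, against 51 and 138 after rescaling and 48 and 55 with protein-coding genes summed anew.

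All 10 members had values below 0 in E10.5 FL mutants, with a median of -0.32 where 53.4% of all genes were above 0 and their median was 0.02. No member was without overlap, as 10.3% of genes were. With E10.5 FL mutant 3 left out 8 of 10 were below 0 and the median was -0.10; without E10.5 FL WT 1 as well, 8 of 10 were below 0 with a median of -0.22. Without the Xist-holding libraries 6 of 10 were below 0 with a median of -0.16. The ectoderm and ridge markers summed to 69.8 to 75.7 TPM in the WT and 75.4 to 122 TPM in the mutants of this comparison, and the erythroid markers to 2056 to 2914 TPM and 4533 to 5525 TPM. The 7 mesenchyme markers that are not members summed to 106 to 138 TPM in WT and 79.5 to 110 TPM in mutants. No marker of these 3 lists was at 0 in all libraries of these groups. The part of these cell markers in the values was not tested.
In E10.5 HL 6 members were above 0 and 4 below, with a median of 0.10, and the value farthest from 0 was Tbx3 at 0.43 ± 0.29. Its mutants held 2.96, 2.16 and 6.03 TPM and its WT 1.69, 2.49 and 2.87 TPM, so only E10.5 HL mutant 3 stood well above the WT. In E11.5 FL 6 were above and 4 below, with a median of 0.02, and Lmx1b was the highest at 0.38 ± 0.18 (0.23). In E11.5 HL 9 of 10 were below 0 with a median of -0.13, where 38.9% of all genes were above 0. Tbx18 and Prrx1, with the values given above, were the lowest there, and Tbx2 at -0.33 and Lmx1b at -0.32 came next.

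**Figure D4:**
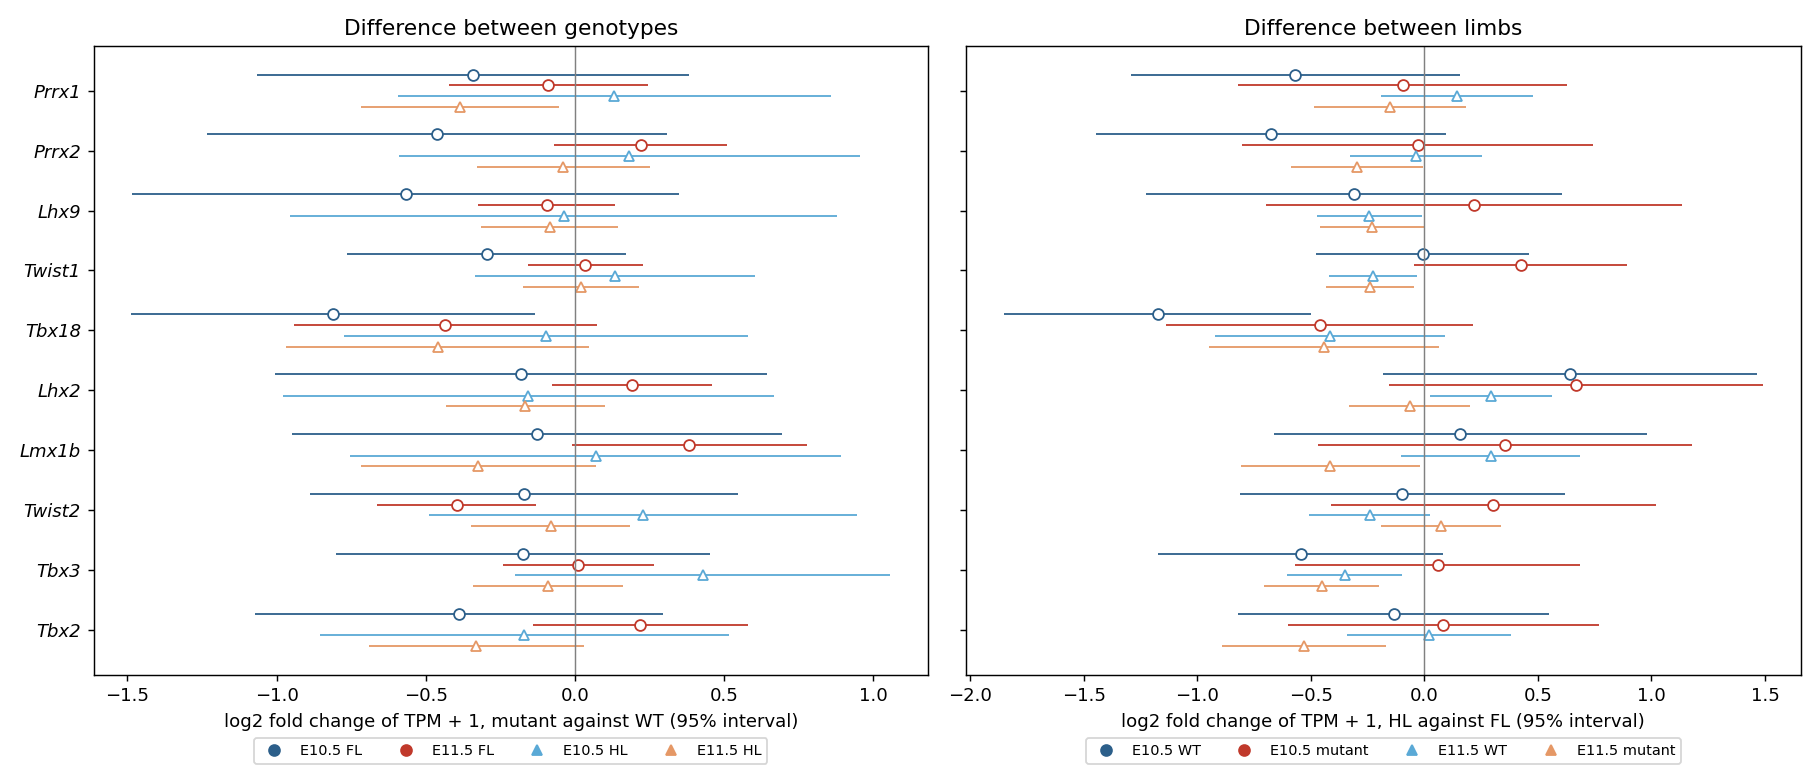
Differences in log2(rescaled TPM + 1) of each member, mutant minus WT and HL minus FL; points are limma estimates and bars 95% intervals, and all points are open because no adjusted p was under 0.05. Tbx18 lies below 0 in each of the 8 comparisons, from -1.17 to -0.10.

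Whether the genotype difference itself changed between limbs or stages was tested directly, and no member was called. HL minus FL gave 0 of 10 members at E10.5 (0% of genes; no member and 2.51% of genes at an unadjusted p under 0.05) and 0 of 10 at E11.5 (0.0175%). At E11.5 Lmx1b (-0.71 ± 0.25, limma adjusted p = 0.339) and Tbx2 (-0.55 ± 0.23, 0.359) had an unadjusted p under 0.05, both with mutant minus WT values above 0 in FL and below 0 in HL; 13.4% of genes had such a p. E11.5 minus E10.5 gave 0 of 10 in FL (0.0660%) and 0 of 10 in HL (0.00825%), with no member at an unadjusted p under 0.05, as against 12.7% and 2.53% of genes. These comparisons reuse the same libraries as the single contrasts.

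Between limbs, no member passed within a stage and genotype, while the limb identity genes did. Limma called 0 of 10 members in E10.5 WT (0.124% of genes), 0 of 10 in E10.5 mutants (0.0618%), 0 of 10 in E11.5 WT (0.149%) and 0 of 10 in E11.5 mutants (0.377%). At an unadjusted p under 0.05 there were 1, 0, 4 and 6 members, against 9.35%, 6.69%, 6.97% and 16.2% of genes. The T-box gene Tbx4, a hindlimb gene that is not a member, was called higher in HL in all 4 comparisons, by 2.04 to 2.50, and Tbx5, its forelimb counterpart, lower in 3 of 4.
Tbx18 was the member with the largest limb difference in E10.5 WT, while Lhx2 differed more in E10.5 mutants and Tbx2 in E11.5 mutants. In E10.5 WT the HL libraries held 1.27, 2.23 and 2.89 TPM and the FL libraries 4.68, 6.75 and 6.46 TPM, without overlap, so the HL mean was 0.358 of the FL mean. The difference was -1.17 ± 0.31 (95% interval -1.85 to -0.50, adjusted p = 0.254). In E10.5 mutants it was -0.46, and -0.81 without E10.5 FL mutant 3; in E11.5 WT it was -0.41 and in E11.5 mutants -0.44. Averaged over stage and genotype, a comparison added after the data were seen, Tbx18 was lower in HL by -0.62 ± 0.14 and was the 1 of 10 members called (0.0238), against 2.60% of genes. The call was lost on the deposited scale (-0.58, 0.259), with no filter on low genes (0.0568) and without E11.5 FL WT 3 (0.0512), E11.5 HL WT 1 (0.0535) or E11.5 FL mutant 2 (0.0519).

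Lhx2 had HL minus FL values above 0 in 3 of the 4 comparisons. In E10.5 WT all 3 HL libraries (9.79, 10.3 and 12.9 TPM) were above the FL libraries (6.39, 5.69 and 8.06 TPM), with a difference of 0.64 that was not called. The Lhx2 differences were 0.67 in E10.5 mutants (0.17 without E10.5 FL mutant 3), 0.29 in E11.5 WT and -0.06 in E11.5 mutants, and the average was 0.38 ± 0.15 (limma adjusted p = 0.212). Tbx3 differed by -0.54, 0.06, -0.35 and -0.45 ± 0.12 (0.13) in the same order, with overlap in E10.5 mutants and in none of the others. Its average was -0.32 ± 0.11 (0.166), and without E10.5 HL mutant 3, the library at 6.03 TPM, it was called (0.0189).
In E11.5 mutants Tbx2 held 3.12, 1.91 and 1.61 TPM in HL and 4.17, 3.41 and 3.13 TPM in FL, a difference of -0.53 ± 0.16 (0.19). Members without overlap between limbs numbered 4 (1 higher and 3 lower in HL) in E10.5 WT, 1 in E10.5 mutants, 4 in E11.5 WT and 4 in E11.5 mutants, against 11.7%, 17.1%, 12.5% and 21.7% of genes. On the deposited scale 8 members were called lower in HL of E11.5 mutants, where 28 genes were called higher and 5112 lower and the median gene moved by -0.44; after rescaling the numbers were 24 and 19, and with protein-coding genes summed anew 23 and 40. Whether the limb difference changed with stage was tested as well: 0 of 10 members were called in WT (0.0165% of genes) and 0 of 10 in mutants (0.0330%), with 0 and 1 (Twist1) at an unadjusted p under 0.05, against 6.86% and 12.8% of genes.

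The partners of these factors were read from lists. Of the bHLH genes that pair with or inhibit TWIST proteins, limma called 1 higher in FL WT, 4 in FL mutants, 2 in HL WT and 1 in HL mutants between stages, of 8 tested, and none lower. Id1, an inhibitor of bHLH pairing, rose in FL WT by 0.72 (0.0121). Tcf3, which encodes E proteins that pair with TWIST1, rose by 0.84 (0.00464) in FL mutants and 0.69 (0.012) in HL WT. Hand2, a bHLH factor of the posterior bud, rose by 1.15 (0.00787) in FL mutants, and Tcf12 by 0.46 (0.0173). Id2 rose in HL WT by 0.44 (0.0158) and in HL mutants by 0.58 (0.0035).
Of 9 tested cofactors of the LIM homeodomain proteins, 4 rose and 1 fell in FL WT, 4 rose in FL mutants, 5 in HL WT and 5 in HL mutants. Ldb2, which bridges LIM proteins as LDB1 does, rose in all 4, by 0.47, 0.71, 1.04 and 1.12, and Ldb1 in 3, by 0.71 in FL mutants, 0.82 in HL WT and 0.52 in HL mutants. Lmo4, which competes for the bridge, rose by 0.72 (3.22e-05) in FL WT, 0.58 in FL mutants and 0.47 in HL WT, while Lmo2 fell by 0.90 (0.00257) in FL WT. All these shares stand against the 36.3% to 42.0% of all genes called.

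Among the other paired-type genes, Alx1 and Alx4 fell in HL WT by 1.24 and 1.15, while Shox2, a gene of the proximal limb skeleton, rose by 2.13 (limma adjusted p = 0.0008). Alx4 also fell in FL WT, by 0.86, with Alx1 (0.90). Shox2 rose by 1.82 in FL mutants and 1.74 in HL mutants. Of 4 other T-box genes tested, Tbx15 rose in HL WT by 0.99 (0.0203), Tbx5 in FL mutants by 0.93 (0.0319), and Mga fell in both mutant limbs, by 0.64 (0.0156) in FL and 0.60 (0.0204) in HL. Tbx5 in FL mutants went from 5.36, 5.24 and 1.81 TPM to 8.18, 9.03 and 7.30 TPM. The 1.81 TPM is that of E10.5 FL mutant 3. All FL mutant calls of the lists between stages include that library, and values without it are not given here. The only other LIM homeobox gene tested was Isl1, which was not called between stages.
Of 37 other mesenchyme transcription factors, 7 rose and 7 fell in FL WT, 11 and 3 in FL mutants, 12 and 3 in HL WT, and 7 and 4 in HL mutants. Of 14 signals of the ridge and polarizing region, 3 rose and 1 fell in FL WT, 7 rose in FL mutants, 5 rose and 1 fell in HL WT, and 5 rose and 2 fell in HL mutants. Over all genes, 18.5% to 23.8% were called higher and 16.8% to 18.2% lower in these stage comparisons. Between genotypes, the lists gave a single call over the 4 comparisons, Etv4, an FGF target, higher in E11.5 FL mutants by 0.52 ± 0.10 (0.031). This is 1 of the 36 other mesenchyme factors tested there, against 1.66% of all genes called.

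The genes most like each member over the 24 libraries were found by Pearson correlation of log2(rescaled TPM + 1) among 5930 genes with a mean of at least 5 TPM. The libraries share stage, scaling and bud composition, so these values are a description. Tbx18 was most like Cdh11, a mesenchymal cadherin (r = 0.969; 0.919 within E10.5 and 0.850 within E11.5). Prrx1 was most like Cdk14 (0.942; 0.863 and 0.950), followed by Shox2 (0.934). Twist1 was most like Bin1 (0.927), Lmx1b like Kdm2b (0.894; 0.863 and 0.895) and Tbx2 like Sepw1 (0.884), with Hoxd13 next (0.859). Lhx9 was most like Mecom (0.882), which held within E10.5 (0.910) but less within E11.5 (0.528). For Lhx2 the first was Crmp1 (0.848), then Dusp6, an FGF target (0.840; 0.823 within E10.5 and 0.208 within E11.5), and Gli3, the SHH pathway factor (0.835). Prrx2 was most like Nnat (0.831), Twist2 like Il11ra1 (0.831) and Tbx3 like Ube2e3 (0.777).

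Between members the correlations over 24 libraries depended on stage. Prrx1 and Tbx18 reached 0.87, with 0.80 within E10.5 and 0.47 within E11.5. Twist1 and Lhx2 reached 0.75, with 0.73 and -0.38. Tbx2 and Tbx3 were at 0.70 within E10.5 and 0.73 within E11.5, but at 0.50 over both. Lhx2 and Lhx9 were at 0.70 within E10.5 and -0.31 within E11.5, and Prrx1 and Prrx2 at 0.75 and -0.16. Twist1 and Tbx3 were at 0.07 within E10.5 and 0.92 within E11.5. Each within-stage value rests on 12 libraries, among them E10.5 FL mutant 3 and E10.5 HL WT 1, which are low for several members at once.

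The members lie on 6 chromosomes in GRCm38. Prrx1 (chr1:163245119-163313710), Twist2 (chr1:91801461-91848028) and Lhx9 (chr1:138825186-138848577) are on chromosome 1. Prrx2 (chr2:30834972-30881251), Lmx1b (chr2:33560965-33640511) and Lhx2 (chr2:38339281-38369733) are on chromosome 2. Tbx3 is at chr5:119670669-119684724, Tbx18 at chr9:87702800-87731260, Tbx2 at chr11:85832551-85841948 and Twist1 at chr12:33957671-33959829. Other annotated genes overlap 6 of them. Because the strand counted is not given in the sources used here, reads of overlapping genes on opposite strands cannot be told apart. Some overlapping genes lie on the member's own strand, where the strand would not separate them. These are Gm29101 at Twist2, and Gm37644 (1.06 to 5.81 TPM) and Gm26523 (0.469 to 3.15 TPM) at Prrx1. Gm20471, antisense to Prrx1, was listed at 0.219 to 8.48 TPM, Tbx3os1, antisense to Tbx3, at 0 to 5.33 TPM, and D030062O11Rik, on the other strand at Tbx18, at 0.0970 to 1.44 TPM. Tbx3 itself had a mean of 3.18 TPM and a highest library of 6.03 TPM. The levels of Tbx3 and its antisense gene within the same library were not compared. Overlapping genes at Twist2, Lmx1b and Lhx2 were listed at no more than 2.20 TPM.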

How the data were processed

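Total RNA of limb buds dissected into Trizol was sequenced as stranded TruSeq libraries on a NextSeq500, per the labels. The files deposited by the authors give a TPM for each gene symbol, summing to 1000000 in each library. HISAT2 and mm10 are named in the submitters' processing notes; no quantifier, annotation or counting strand is given in the sources used here. Read depth is lost in TPM, and with it the precision of low values. Protein-coding genes held 13.6% to 32.8% of the TPM, which is why libraries were rescaled to equal medians of log2 over 3518 genes with at least 5 TPM in all 24.

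Values were taken as log2(rescaled TPM + 1), a pseudocount of 1. A gene entered a fit when 3 or more of its libraries reached 1 TPM. Fits used limma 3.58.1 in R 4.3.3 with the variance trend on, over the 12 libraries of a stage, or over all 24 for stage comparisons and averages. All limma tests were two-sided, and p-values were adjusted over all genes tested (Benjamini-Hochberg, threshold 0.05). Python 3.11.15 (numpy 2.4.6, pandas 2.3.3, scipy 1.17.1, matplotlib 3.10.9) computed ratios and their exact permutation tests. Log2 values were simulated for the E11.5 FL layout with 11446 genes and 200 changed. The fit recovered 95% of changes of 2-fold in TPM + 1 and 98% of those of 4-fold, with 4 false calls. The E10.5, HL and stage layouts were not simulated. Recovery was not measured separately for low genes such as Tbx2 and Tbx3, so these percentages do not give the power for them. Nothing in the labels ties libraries to embryos, so p-values measure the spread between these libraries, which may be technical. Replicates correlated at 0.921 to 0.977 over 24 pairs, and none were identical.

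GENCODE M21 (GRCm38) matched 36217 of 38019 symbols, 21019 of them nuclear protein-coding. Promoter windows came from a RefSeq table of GRCm38.p6. The members and lists were chosen with earlier results of these data known. All members are named; of other lists, up to 3 called members in each direction by adjusted p, or the 2 of highest level where none was called; and for each member the 3 genes of highest correlation. The text gives a subset of these. Results for 1 gene of the lists are not reported here. Alternatives were the deposited scale, protein-coding genes summed anew, a pseudocount of 0.1, no filter, a replicate block, other sets of libraries in a fit, each library left out, and leaving out the libraries that stand apart or hold Xist. Added after the data were seen were rescaling within a stage, the limb and stage averages, limb differences between stages and the ratio tests.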

Additional observations from a re-analysis of the deposited data

Results flagged for a closer look

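Twist1 was the 1 member whose limbs differed in opposite directions in 2 groups of the same contrast with no overlap of libraries in either. In E10.5 mutants it was higher in HL than in FL (25.2, 18.4 and 15.9 TPM against 15.5, 15.6 and 12.01 TPM; 0.42 ± 0.21 on the log2 scale, limma adjusted p = 0.819). In E11.5 mutants it was lower in HL (11.7, 9.50 and 11.46 TPM against 13.2, 13.5 and 12.3 TPM; -0.24 ± 0.09, adjusted p = 0.236). Neither pair of groups overlapped, as for 17.1% of genes in the E10.5 contrast and 21.7% in the E11.5 contrast. The difference between the 2 contrasts was -0.66 ± 0.24, with an unadjusted limma p of 0.0117 and an adjusted p of 0.277, so it did not pass. On the deposited scale it was -1.69 and did (0.0218). The median gene moved on that scale by 0.45 in the E10.5 contrast and by -0.44 in the E11.5 contrast, so part of that value is shared by all genes. Without E10.5 FL mutant 3 the E10.5 value was 0.31.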

How the results depend on the processing

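Numbers here are members called of 10 unless said otherwise. No called value of a member changed sign under any alternative run. The deposited scale gave 5 for mutant against WT in E11.5 FL (0 after rescaling), 8 for HL against FL in E11.5 mutants (0), 1 for stage in FL WT (2), 5 for stage in HL mutants (3), 0 for the averaged limb comparison (1) and 7 for the change of limb difference with stage in mutants (0). The stage count in FL WT was also 1 with no filter and 1 with only the 6 libraries compared, 3 without the Xist-holding libraries and 1 to 2 with a library left out. The stage count in FL mutants was 2 to 4 with a library left out (3). Without the Xist-holding libraries E10.5 mutants had 1 library left in each limb, so no count is given for mutants there. The averaged limb count was 0 with no filter, 2 with the replicate block and 0 to 2 with a library left out. Without E10.5 FL WT 1 and E10.5 FL mutant 3 the log2 Prrx1 to Prrx2 genotype difference was -0.27; with a library left out it was -0.26 to -0.070. The log2 Tbx3 to Tbx2 difference was -0.34 between limbs (then called, 0.0075) and 0.30 between genotypes without the Xist-holding libraries, and -0.30 to -0.20 and 0.26 to 0.35 with a library left out. The cause of these changes was not tested.

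Whether replicate numbers pair the libraries is not known. No comparison had every same-numbered correlation of residuals over 0.1, but such a cutoff cannot exclude pairing. In mutants, Xist matched by number between limbs. At E10.5 it was 28.6, 0.0317 and 8.03 TPM in FL and 24.4, 0.00956 and 14.5 TPM in HL. At E11.5 it was 0.0376, 0.0240 and 25.9 TPM in FL and 0.0297, 0.197 and 24.9 TPM in HL. The main limb tests and the ratio tests took the limbs as independent. The replicate block changed no member's call in the planned comparisons. In the averaged limb comparison it added Lhx2 (adjusted p = 0.0111). In HL against FL of E10.5 WT each sample correlated best with its own number (0.0593 to 0.282), a hint from the data, not the design. A pseudocount of 0.1, all 24 libraries in a fit and rescaling within a stage changed no member's call. With 3 libraries a group and unknown depth, small differences of low genes such as Tbx2 and Tbx3 were not detectable.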
